A study of Mus musculus with 30 samples.

Results

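Blood progenitors that lack Sp3 were set directly against blood progenitors that carry a truncated form of the related factor Sp1. The question was where loss of Sp3 and truncation of Sp1 leave the cells with different transcripts. According to the study, the truncated Sp1 keeps part of its function. Both groups were made from the mouse embryonic stem cell line E14. The Sp3KO cells are Sp3-/- cells, and the Sp1_deltaDBD cells are homozygous for an *Sp1* allele that lacks the part for DNA binding (Sp1ΔDBD/ΔDBD). In each case Flk1+ cells from embryoid bodies were grown in blast culture, and at day 2 the progenitors were sorted as KIT+, CD41+ and Tie2- cells. Each genotype had 2 libraries of total RNA, so that 4 of the 30 samples of the series were compared. No wild type library entered any comparison, and a difference therefore does not tell which of both mutants departed from normal cells. How many clones stood behind each mutant line is not given in the sources used here. All 14685 genes of the deposited table were read, and the 14268 genes above 1 FPKM (fragments normalised to transcript length and to the mapped fragments of the library) in at least 1 of the 20 mutant samples were tested.

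Sp1 and Sp3 are zinc finger transcription factors that are present in nearly all cells and bind the same GC-rich promoter sequence, the GC box. Sp1 activates transcription, whereas forms of Sp3 can activate or repress. In the differentiation used here, Flk1+ mesoderm gives rise to haemogenic endothelium (HE1, then HE2), an endothelial cell type that buds off progenitors of the erythroid, megakaryocytic and myeloid lineages.

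The 4 libraries were quantile normalised by the authors and shared a median of 7.19 FPKM. The depth of each library is unknown. Each library gives one lowest value to all genes without signal, which was 0.0234 FPKM (1660 genes) and 0.00572 FPKM (1199 genes) in the Sp3KO libraries and 0.00595 FPKM (1216 genes) and 0.00816 FPKM (1294 genes) in the Sp1_deltaDBD libraries. A gene at this value is called listed at the lowest value below, and where both libraries of a genotype are at it, a fitted difference depends on the pseudocount and the gene is described by its FPKM values. The Pearson correlation of log2(FPKM + 0.1) was 0.98 between the Sp3KO libraries, 0.966 between the Sp1_deltaDBD libraries and 0.95 to 0.957 between genotypes. The libraries of each genotype were called biological replicates, and SE and p-values use the spread between such samples. This spread was estimated over the 20 mutant samples of all 5 populations, not over the 4 progenitor libraries alone. As whole sorted populations were sequenced, fewer cells of a type and less RNA per cell cannot be told apart.

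Both mutated genes come first. *Sp3* (GRCm38, chromosome 2, 72936427 to 72980446) had 4.81 and 4.1 FPKM in the Sp3KO libraries and 49.4 and 50.9 FPKM in the Sp1_deltaDBD libraries (log2 difference -3.47 ± 0.16, SE, n = 2 against 2, limma adjusted p = 4.12e-08). The remaining signal was thus low and alike in both Sp3KO libraries, and the groups did not overlap. *Sp1* (chromosome 15, 102406143 to 102436404) had 31.5 and 29.9 FPKM in the Sp3KO libraries and 14.8 and 20.5 FPKM in the Sp1_deltaDBD libraries (log2 difference 0.81 ± 0.18, SE, n = 2 against 2, limma adjusted p = 0.0109). Only part of *Sp1* is deleted in these cells, and its transcript was still listed in both Sp1_deltaDBD libraries at a lower level. *Sp1* lost the limma call without Sp3KO replicate 1 (adjusted p = 0.0722) and without Sp3KO replicate 2 (adjusted p = 0.0526). *Sp1* lost the limma call without Sp1_deltaDBD replicate 1 (adjusted p = 0.0866).

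*Kit*, *Itga2b* and *Tek*, which encode the surface proteins KIT, CD41 and Tie2 used in the sort, were not called. *Kit* had 47.3 and 40.3 FPKM in the Sp3KO libraries and 30.4 and 46.4 FPKM in the Sp1_deltaDBD libraries (log2 difference 0.22, limma adjusted p = 0.721). *Itga2b* had 81.6 and 102 FPKM in the Sp3KO libraries and 59.1 and 119 FPKM in the Sp1_deltaDBD libraries (log2 difference 0.12, limma adjusted p = 0.923). *Tek*, whose protein was absent from the surface of the sorted cells, was still listed at 13.6 and 17.5 FPKM in the Sp3KO libraries and 15.7 and 9.54 FPKM in the Sp1_deltaDBD libraries (log2 difference 0.33, limma adjusted p = 0.56). For each of these 3 genes the values of both genotypes overlapped.

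Across all genes tested, 818 genes (5.73%) were higher and 841 genes (5.89%) were lower in Sp3KO than in Sp1_deltaDBD progenitors (limma, adjusted p under 0.05). The median log2 difference over all genes tested was 0.03. Both Sp3KO libraries lay above both Sp1_deltaDBD libraries in 25.6% of the genes and below them in 25.1%, so that a lack of overlap alone was common. A fold change above 2 between group means, with the higher group averaging above 3 FPKM, was reached by 254 genes (1.78%) in the direction of Sp3KO and by 334 genes (2.34%) in the direction of Sp1_deltaDBD, and limma called 185 and 226 of these. Without Sp3KO replicate 1 limma called 339 higher and 381 lower genes, and without Sp3KO replicate 2 it called 288 and 414. Without Sp1_deltaDBD replicate 1 the counts were 589 and 536, and without Sp1_deltaDBD replicate 2 they were 1056 and 764. With the 4 progenitor libraries alone, and hence 2 samples a group to estimate the spread, limma called 17 and 13. Without Sp1_deltaDBD replicate 1 the fold change above 2 was reached by 410 genes in the direction of Sp3KO.

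**Figure D1:**
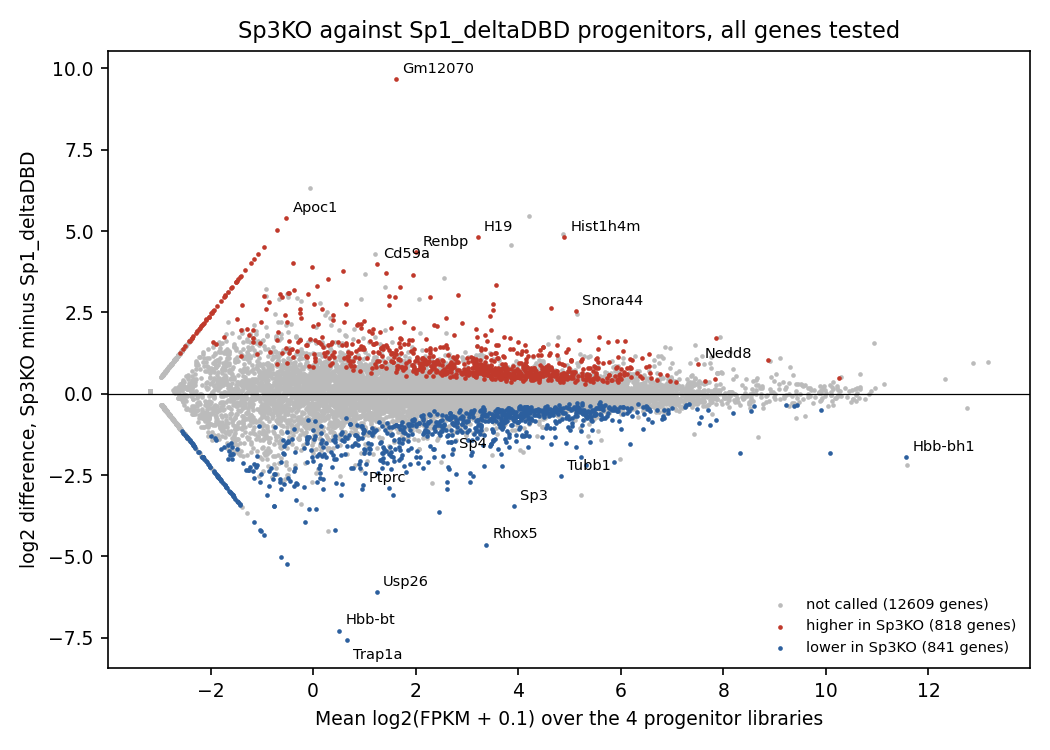
Each point is a gene tested, with the mean log2(FPKM + 0.1) over the 4 progenitor libraries on the x axis and the log2 difference, Sp3KO minus Sp1_deltaDBD, on the y axis. Red and blue points are the 818 higher and 841 lower genes called by limma, and the straight edges at the left are genes at the lowest value in one genotype.

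The difference moved with the base composition of the transcripts. Among 11372 genes above 1 FPKM on average, the log2 difference and the GC content of the transcript had a Spearman correlation of 0.44 across genes, which are not independent replicates. In the fifth of genes with the lowest GC content (29.6 to 43.7%) the median log2 difference was -0.24, with 20 genes higher and 273 lower in Sp3KO. In the fifth with the highest GC content (55.3 to 71.3%) it was 0.33, with 348 genes higher and 57 lower. With a correction for GC content and transcript length, 572 genes were higher (4.19% of 13636) and 846 lower (6.2%), of which 432 and 579 were among the calls above. Where this correction removes a call of a named gene, this is stated beside it. Genes of the X and Y chromosomes, such as *Renbp*, *Usp26*, *Rhox5* and *Trap1a*, were not run through the correction.

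Sp1 and Sp3 bind GC boxes, and promoters were therefore examined for the letters GGGCGG on either strand. The window was 300 bases of the first RefSeq promoter of each gene (GRCm38.p6), from 250 bases before to 50 bases after the start. At least 1 such box stood in 65% of the promoters of the higher genes (622 of 818 had a promoter entry), in 64.6% of those of the lower genes (663 of 841) and in 63.4% of all genes tested. It stood in 35.9% of all promoters in the table. Thus the share was near that of all genes tested in both directions. At least 2 boxes were found in 37.6% of the promoters of the higher genes, 45.2% of the lower genes and 37.8% of all genes tested. The 250 bases before the start are shown for 4 protein-coding genes whose expression is described below, namely the 2 with the largest difference in each direction among those listed above the lowest value in all 4 libraries, with the histone genes left out because of their near-identical copies. Capitals mark GC boxes.
Renbp (higher in Sp3KO), chrX:73930851-73931100, minus strand: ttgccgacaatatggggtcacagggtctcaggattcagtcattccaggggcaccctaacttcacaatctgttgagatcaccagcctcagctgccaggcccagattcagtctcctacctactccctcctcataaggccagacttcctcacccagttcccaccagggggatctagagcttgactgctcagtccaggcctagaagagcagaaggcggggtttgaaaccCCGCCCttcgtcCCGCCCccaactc
Cd59a (higher in Sp3KO), chr2:104095551-104095800, plus strand: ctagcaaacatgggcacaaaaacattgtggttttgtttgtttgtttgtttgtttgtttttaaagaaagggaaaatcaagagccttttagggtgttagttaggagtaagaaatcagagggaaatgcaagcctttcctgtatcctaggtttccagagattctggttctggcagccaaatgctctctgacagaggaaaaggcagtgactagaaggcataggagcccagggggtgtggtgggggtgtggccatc
Usp26 (lower in Sp3KO), chrX:51801234-51801483, minus strand: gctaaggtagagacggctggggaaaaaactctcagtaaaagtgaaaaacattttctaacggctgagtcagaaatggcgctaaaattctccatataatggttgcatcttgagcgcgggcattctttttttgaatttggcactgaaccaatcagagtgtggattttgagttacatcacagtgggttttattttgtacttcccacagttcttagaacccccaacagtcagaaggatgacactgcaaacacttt
Rhox5 (lower in Sp3KO), chrX:37754358-37754607, plus strand: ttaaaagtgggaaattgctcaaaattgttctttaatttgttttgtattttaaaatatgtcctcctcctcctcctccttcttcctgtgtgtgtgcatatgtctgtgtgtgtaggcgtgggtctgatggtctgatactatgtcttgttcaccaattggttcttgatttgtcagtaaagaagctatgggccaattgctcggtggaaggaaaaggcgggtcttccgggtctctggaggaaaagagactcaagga
Of these 4 stretches, only that of *Renbp* held the letters, at positions -25 and -13 from the start. No GC box stood in the upstream stretch of the other 3 genes.

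The other Sp and Klf factors were examined next, since they share the zinc finger type and the GC-rich sites of Sp1 and Sp3. Of 19 tested, 1 was higher and 1 was lower, near the shares over all genes tested (5.73% and 5.89%). *Sp4*, the closest relative of both, was lower in Sp3KO, with 3.35 and 3.38 FPKM in the Sp3KO libraries and 12.1 and 12.7 FPKM in the Sp1_deltaDBD libraries (log2 difference -1.85 ± 0.24, SE, n = 2 against 2, limma adjusted p = 3.47e-04). *Klf15*, a regulator of glucose and amino acid metabolism, was higher but weakly expressed, with 1.57 and 1.85 FPKM in the Sp3KO libraries and 0.43 and 0.528 FPKM in the Sp1_deltaDBD libraries (log2 difference 1.65 ± 0.35, SE, n = 2 against 2, limma adjusted p = 0.00865). *Sp2* had 6.29 and 6.41 against 4.63 and 6.86 FPKM (log2 difference 0.17, limma adjusted p = 0.703), and *Klf4* had 0.731 and 1.13 against 0.335 and 0.537 FPKM (log2 difference 0.94, limma adjusted p = 0.052). *Klf15* lost the limma call without Sp3KO replicate 2 (adjusted p = 0.0662).

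Globin transcripts were the most abundant of the transcripts that differed. Of 12 globin genes tested, 4 were lower and none was higher in Sp3KO, and their median log2 difference was -1.78. The summed globin level was 1678 and 3889 FPKM in the Sp3KO libraries and 10673 and 8095 FPKM in the Sp1_deltaDBD libraries. *Hbb-bh1*, the embryonic beta-like globin of the first erythroid cells, had 1111 and 2128 FPKM in the Sp3KO libraries and 7014 and 5094 FPKM in the Sp1_deltaDBD libraries (log2 difference -1.96 ± 0.58, SE, n = 2 against 2, limma adjusted p = 0.0437). *Hba-x*, the embryonic alpha-like (zeta) globin, had 325 and 1038 FPKM in the Sp3KO libraries and 2259 and 1849 FPKM in the Sp1_deltaDBD libraries (log2 difference -1.81 ± 0.52, SE, n = 2 against 2, limma adjusted p = 0.0396). For both, each Sp3KO library lay below each Sp1_deltaDBD library, and Sp3KO replicate 1 was the lower of its pair. *Hbb-bt*, an adult beta globin, was listed at the lowest value in both Sp3KO libraries and at 22.8 and 13.7 FPKM in the Sp1_deltaDBD libraries (limma adjusted p = 9.76e-07). *Hbq1a*, a theta globin, was likewise at the lowest value in Sp3KO and had 2.20 and 1.91 FPKM in Sp1_deltaDBD (limma adjusted p = 1.64e-04).

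The remaining globins did not pass the test. The embryonic epsilon-type *Hbb-y* had 51.2 and 242 FPKM in the Sp3KO libraries and 268 and 262 FPKM in the Sp1_deltaDBD libraries (log2 difference -1.25, limma adjusted p = 0.283). The adult alpha globin *Hba-a2* had 165 and 406 FPKM in the Sp3KO libraries and 886 and 479.7 FPKM in the Sp1_deltaDBD libraries (log2 difference -1.33, limma adjusted p = 0.616). *Hbb-b1*, *Hbb-b2*, *Hbb-bs* and *Hbb-bt*, and likewise *Hba-a1* and *Hba-a2*, are near-identical copies among which reads can be split, and the level of any single one is uncertain. *Hbb-bs* was listed at 131 FPKM in Sp1_deltaDBD replicate 1 and at 0.11 FPKM in replicate 2. The count of lower genes was 2 without Sp3KO replicate 1, 3 without Sp3KO replicate 2, 2 without Sp1_deltaDBD replicate 1 and 3 without Sp1_deltaDBD replicate 2. *Hbb-bh1* and *Hba-x* lost the limma call without Sp3KO replicate 1 (adjusted p from 0.253 to 0.328), as did *Hbb-bh1* without Sp3KO replicate 2 (adjusted p = 0.0702). *Hbb-bh1* and *Hba-x* lost the limma call without Sp1_deltaDBD replicate 1 (adjusted p from 0.149 to 0.171) and without Sp1_deltaDBD replicate 2 (adjusted p from 0.0688 to 0.0733).

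Genes of the red cell membrane, its cytoskeleton and their regulators showed the same direction. Of 25 tested, 9 were lower and none was higher (median log2 difference -1.06). *Slc4a1*, the anion exchanger band 3, had 0.498 and 1.63 FPKM in the Sp3KO libraries and 12.9 and 4.43 FPKM in the Sp1_deltaDBD libraries (log2 difference -2.91 ± 0.51, SE, n = 2 against 2, limma adjusted p = 0.00318). *Add2*, the beta adducin that joins spectrin to actin, had 1.83 and 4.14 FPKM in the Sp3KO libraries and 12.7 and 14.2 FPKM in the Sp1_deltaDBD libraries (log2 difference -2.24 ± 0.45, SE, n = 2 against 2, limma adjusted p = 0.00679). For both genes no Sp3KO library reached the level of a Sp1_deltaDBD library. *Ermap*, an erythroid membrane protein of the Scianna blood group, had 0.61 and 1.75 against 9.08 and 3.36 FPKM (log2 difference -2.30, limma adjusted p = 0.0097), and *Car1*, the red cell carbonic anhydrase, had 0.409 and 1.32 against 6.24 and 2.59 FPKM (log2 difference -2.28, limma adjusted p = 0.0414). *Hemgn*, an erythroid nuclear protein chosen after its values were seen, had 3.05 and 3.29 against 31.9 and 14.3 FPKM (log2 difference -2.72, limma adjusted p = 0.00183).

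Main regulators of this programme did not pass the test. *Gata1*, the factor that drives erythroid and megakaryocytic genes, had 40.1 and 45.2 FPKM in the Sp3KO libraries and 68.1 and 62.6 FPKM in the Sp1_deltaDBD libraries (log2 difference -0.61, limma adjusted p = 0.716). *Klf1*, which activates beta globin, had 19 and 24.2 FPKM in the Sp3KO libraries and 58.6 and 19.3 FPKM in the Sp1_deltaDBD libraries (log2 difference -0.65, limma adjusted p = 0.608). *Epor*, the receptor of erythropoietin, had 23.7 and 30.5 FPKM in the Sp3KO libraries and 22.5 and 20.1 FPKM in the Sp1_deltaDBD libraries (log2 difference 0.34, limma adjusted p = 0.573). The values of *Gata1* did not overlap and those of *Klf1* did, Sp1_deltaDBD replicate 1 being far above the other 3 libraries. With libraries left out, the list had lower genes numbering 1 without Sp3KO replicate 1, 9 without Sp3KO replicate 2, 3 without Sp1_deltaDBD replicate 1 and 8 without Sp1_deltaDBD replicate 2. *Add2*, *Ermap* and *Car1* lost the limma call without Sp3KO replicate 1 (adjusted p from 0.0798 to 0.277), as did *Ermap* and *Car1* without Sp1_deltaDBD replicate 1 (adjusted p from 0.0856 to 0.223).

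Of 24 genes of haem synthesis and iron uptake, 6 were lower and 1 was higher (median log2 difference -0.46). *Tfrc*, the transferrin receptor, had 55.4 and 63.2 FPKM in the Sp3KO libraries and 133 and 117 FPKM in the Sp1_deltaDBD libraries (log2 difference -1.07 ± 0.23, SE, n = 2 against 2, limma adjusted p = 0.00952). *Alad*, the second enzyme of haem synthesis, had 10.3 and 15.2 against 26.2 and 18.2 FPKM (log2 difference -0.80, limma adjusted p = 0.0336). *Blvrb*, a biliverdin reductase, had 19.96 and 31.5 against 104 and 48.2 FPKM (log2 difference -1.49, limma adjusted p = 0.0498), and *Steap3*, the iron reductase of the transferrin cycle, had 1.33 and 0.841 against 4.02 and 2.05 FPKM (log2 difference -1.36, limma adjusted p = 0.0397). These 4 genes were lower in each Sp3KO library than in each Sp1_deltaDBD library. The exception was *Hmox1*, the haem oxygenase that degrades haem and a target of the antioxidant factor NRF2, with 17.1 and 15.8 FPKM in the Sp3KO libraries and 6.29 and 6.18 FPKM in the Sp1_deltaDBD libraries (log2 difference 1.38 ± 0.18, SE, n = 2 against 2, limma adjusted p = 3.76e-04). *Alas2*, the first enzyme of haem synthesis in red cells, had 27.8 and 47 against 78.3 and 44.7 FPKM (log2 difference -0.71, limma adjusted p = 0.297). The count of lower genes was 0 without Sp3KO replicate 1, 5 without Sp3KO replicate 2, 1 without Sp1_deltaDBD replicate 1 and 8 without Sp1_deltaDBD replicate 2. After correction for GC content and length, the list had 11 lower genes. *Tfrc*, *Alad*, *Blvrb* and *Steap3* lost the limma call without Sp3KO replicate 1 (adjusted p from 0.0674 to 0.262), as did *Blvrb* and *Steap3* without Sp3KO replicate 2 (adjusted p from 0.0864 to 0.249). *Tfrc*, *Alad*, *Blvrb* and *Steap3* lost the limma call without Sp1_deltaDBD replicate 1 (adjusted p from 0.056 to 0.291).

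**Figure D2:**
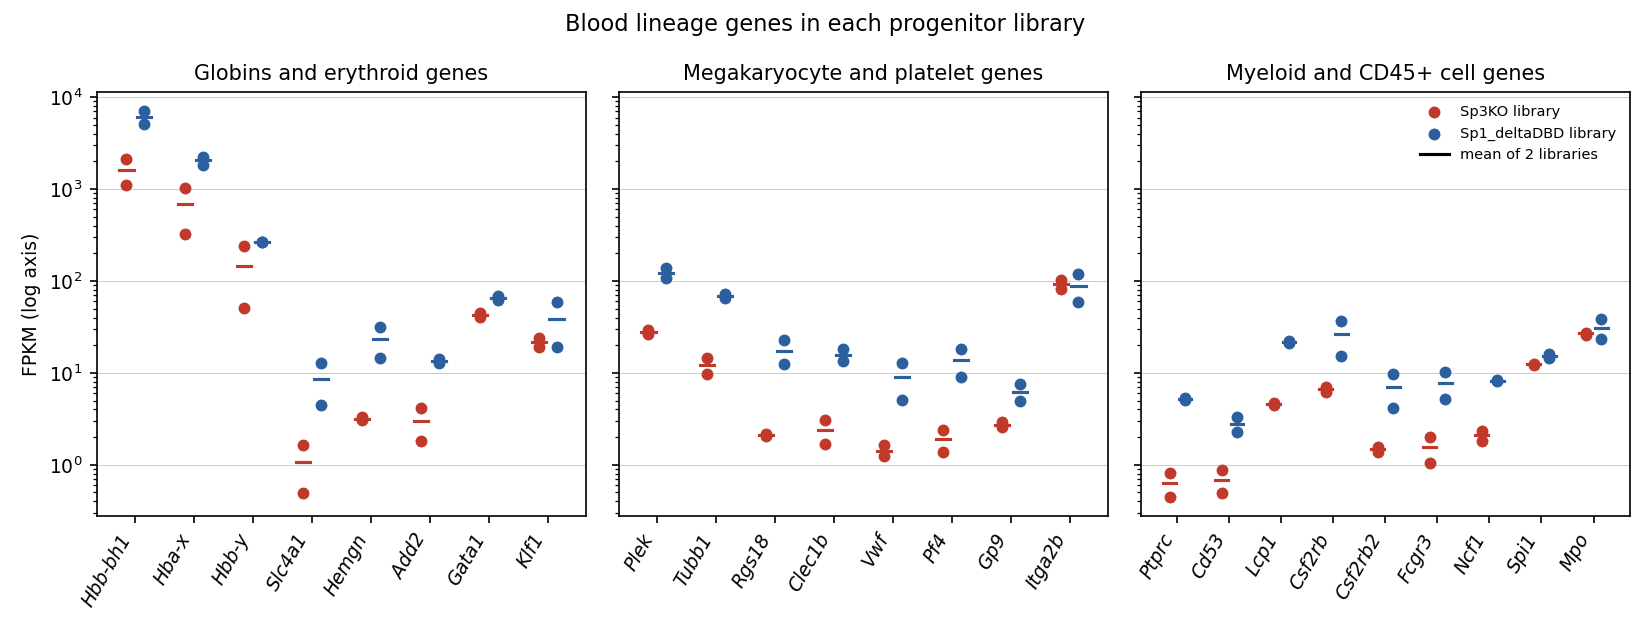
FPKM on a log axis for genes of 3 blood lineages, with 1 point per library (red Sp3KO, blue Sp1_deltaDBD) and a bar at the mean of 2 libraries. *Plek*, *Tubb1*, *Rgs18* and *Ptprc* separate the genotypes, while *Itga2b*, *Spi1* and *Mpo* lie close together.

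Megakaryocytes give rise to platelets, and 12 of the 35 genes of this list were lower in Sp3KO while none was higher (median log2 difference -0.80). *Tubb1*, the beta tubulin of the platelet marginal band, had 9.69 and 14.4 FPKM in the Sp3KO libraries and 71.3 and 65.7 FPKM in the Sp1_deltaDBD libraries (log2 difference -2.52 ± 0.64, SE, n = 2 against 2, limma adjusted p = 0.0215). *Clec1b*, the platelet receptor CLEC-2, had 1.68 and 3.09 FPKM in the Sp3KO libraries and 18.2 and 13.4 FPKM in the Sp1_deltaDBD libraries (log2 difference -2.72 ± 0.63, SE, n = 2 against 2, limma adjusted p = 0.0143). *Vwf*, the adhesive protein stored in platelet granules and endothelium, had 1.24 and 1.62 FPKM in the Sp3KO libraries and 5.01 and 12.9 FPKM in the Sp1_deltaDBD libraries (log2 difference -2.42 ± 0.44, SE, n = 2 against 2, limma adjusted p = 0.00356). All Sp3KO values were below all Sp1_deltaDBD values for these 3 genes. *Gp6*, the platelet collagen receptor, was at the lowest value in Sp3KO replicate 2 and at 0.394 FPKM in replicate 1, against 3.45 and 3.35 FPKM in Sp1_deltaDBD (limma adjusted p = 0.00222). *Plek*, the protein kinase C substrate pleckstrin, which is a member of the list chosen after its values were seen, was the most abundant of those named, with 29.3 and 26.8 FPKM in the Sp3KO libraries and 106 and 138 FPKM in the Sp1_deltaDBD libraries (log2 difference -2.11 ± 0.37, SE, n = 2 against 2, limma adjusted p = 0.00315). *Rgs18*, a regulator of G protein signalling in platelets and also chosen after its values were seen, had 2.17 and 2.07 against 22.6 and 12.3 FPKM (log2 difference -2.92, limma adjusted p = 0.00342).

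Other defining genes of the lineage were not called. *Itgb3*, the partner of CD41 in the fibrinogen receptor, had 106 and 107 FPKM in the Sp3KO libraries and 97.3 and 170.2 FPKM in the Sp1_deltaDBD libraries (log2 difference -0.27, limma adjusted p = 0.706). *Gp1ba*, part of the receptor of von Willebrand factor, had 7.18 and 7.37 against 6.76 and 8.92 FPKM (log2 difference -0.09, limma adjusted p = 0.907). These receptors thus overlapped between the genotypes, whereas *Pf4*, the chemokine platelet factor 4, had 2.4 and 1.39 against 18.4 and 9.06 FPKM (log2 difference -2.75, limma adjusted p = 0.0559) without overlap. With libraries left out, the list had lower genes numbering 5 without Sp3KO replicate 1, 7 without Sp3KO replicate 2, 8 without Sp1_deltaDBD replicate 1 and 9 without Sp1_deltaDBD replicate 2. *Tubb1* and *Clec1b* lost the limma call without Sp3KO replicate 1 (adjusted p from 0.109 to 0.128), as did *Tubb1* without Sp3KO replicate 2 (adjusted p = 0.0661). *Tubb1* and *Clec1b* lost the limma call without Sp1_deltaDBD replicate 1 (adjusted p from 0.0765 to 0.0853), as did *Tubb1* without Sp1_deltaDBD replicate 2 (adjusted p = 0.0548).

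Of the surface genes shared by most blood cells, 3 of 19 were lower and none was higher (median log2 difference -0.45). *Ptprc* encodes CD45, which progenitors acquire as they mature. It had 0.448 and 0.807 FPKM in the Sp3KO libraries and 5.36 and 5.11 FPKM in the Sp1_deltaDBD libraries (log2 difference -2.92 ± 0.30, SE, n = 2 against 2, limma adjusted p = 6.36e-05), and the difference was larger than the spread of either pair. *Cd53*, a tetraspanin of leukocytes, had 0.878 and 0.49 FPKM in the Sp3KO libraries and 2.27 and 3.28 FPKM in the Sp1_deltaDBD libraries (log2 difference -1.90 ± 0.41, SE, n = 2 against 2, limma adjusted p = 0.00992). *Emcn*, a sialomucin of endothelial and early blood cells, was at the lowest value in both Sp3KO libraries and at 0.684 and 0.239 FPKM in the Sp1_deltaDBD libraries (limma adjusted p = 0.0193). *Cd34* had 112 and 139.7 against 86.2 and 100.2 FPKM (log2 difference 0.43, limma adjusted p = 0.597). *Emcn* lost the limma call without Sp3KO replicate 1 (adjusted p = 0.0748), as did *Cd53* and *Emcn* without Sp3KO replicate 2 (adjusted p from 0.0959 to 0.108). *Emcn* lost the limma call without Sp1_deltaDBD replicate 1 (adjusted p = 0.141), as did *Cd53* without Sp1_deltaDBD replicate 2 (adjusted p = 0.0507).

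Of 29 myeloid genes, 6 were lower and none was higher (median log2 difference -1.16). The summed level of this list was 139 and 156 FPKM in the Sp3KO libraries and 236 and 270 FPKM in the Sp1_deltaDBD libraries. *Lcp1*, the actin-bundling protein L-plastin of leukocytes, had 4.72 and 4.5 FPKM in the Sp3KO libraries and 21.1 and 22.2 FPKM in the Sp1_deltaDBD libraries (log2 difference -2.21 ± 0.31, SE, n = 2 against 2, limma adjusted p = 8.57e-04). *Fcgr3*, a receptor of immunoglobulin G, had 1.06 and 2.03 FPKM in the Sp3KO libraries and 10.1 and 5.25 FPKM in the Sp1_deltaDBD libraries (log2 difference -2.24 ± 0.64, SE, n = 2 against 2, limma adjusted p = 0.0375). *Ncf1*, a subunit of the phagocyte oxidase, had 1.84 and 2.34 against 8.36 and 8.13 FPKM (log2 difference -1.94, limma adjusted p = 0.0231). *Spi1*, which encodes PU.1, the main factor of the myeloid lineage, had 12.6 and 12.1 FPKM in the Sp3KO libraries and 14.5 and 16.1 FPKM in the Sp1_deltaDBD libraries (log2 difference -0.31, limma adjusted p = 0.751). *Mpo*, the peroxidase of granulocyte precursors, had 27.5 and 26.1 FPKM in the Sp3KO libraries and 23.5 and 38.4 FPKM in the Sp1_deltaDBD libraries (log2 difference -0.16, limma adjusted p = 0.883), and *Csf1r*, the receptor of macrophage colony-stimulating factor, had 1.22 and 1.01 against 2.84 and 2.17 FPKM (log2 difference -1.09, limma adjusted p = 0.075). The defining myeloid genes *Spi1* and *Mpo* thus did not pass the test. The count of lower genes was 1 without Sp3KO replicate 1, 7 without Sp3KO replicate 2, 3 without Sp1_deltaDBD replicate 1 and 4 without Sp1_deltaDBD replicate 2. *Fcgr3* and *Ncf1* lost the limma call without Sp3KO replicate 1 (adjusted p from 0.124 to 0.214) and without Sp3KO replicate 2 (adjusted p from 0.0723 to 0.0769). *Fcgr3* and *Ncf1* lost the limma call without Sp1_deltaDBD replicate 1 (adjusted p from 0.0846 to 0.188), as did *Ncf1* without Sp1_deltaDBD replicate 2 (adjusted p = 0.0599).

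Of 8 mast cell and basophil genes, 3 were lower. The protease genes *Mcpt1* and *Mcpt2* were at the lowest value in Sp3KO replicate 1. *Mcpt1* had 0.663 FPKM in Sp3KO replicate 2 and 2.36 and 1.61 FPKM in Sp1_deltaDBD (limma adjusted p = 0.0401). *Cpa3*, the carboxypeptidase of mast cell granules, had 1.84 and 1.58 FPKM in the Sp3KO libraries and 5.6 and 4.1 FPKM in the Sp1_deltaDBD libraries (log2 difference -1.44 ± 0.36, SE, n = 2 against 2, limma adjusted p = 0.0207). With libraries left out, the list had lower genes numbering 0 without Sp3KO replicate 1, 2 without Sp3KO replicate 2, 0 without Sp1_deltaDBD replicate 1 and 1 without Sp1_deltaDBD replicate 2. *Mcpt1* and *Cpa3* lost the limma call without Sp3KO replicate 1 (adjusted p from 0.073 to 0.328), as did *Cpa3* without Sp3KO replicate 2 (adjusted p = 0.121). *Mcpt1* and *Cpa3* lost the limma call without Sp1_deltaDBD replicate 1 (adjusted p from 0.115 to 0.154), as did *Mcpt1* without Sp1_deltaDBD replicate 2 (adjusted p = 0.0687).

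Among 34 genes that signal through KIT and the cytokine receptors, 4 were lower and none was higher (shares over all genes tested 5.89% and 5.73%, median log2 difference -0.05). *Csf2rb*, 1 of the 4, encodes the shared beta chain of the receptors of interleukin-3, interleukin-5 and GM-CSF. Its neighbour and paralog *Csf2rb2* belongs to the myeloid list and is not counted here, and the 2 genes may share reads. *Csf2rb* had 6.15 and 7.09 against 15.4 and 37 FPKM (log2 difference -1.84, limma adjusted p = 0.00708), and *Csf2rb2* had 1.39 and 1.58 against 4.18 and 9.76 FPKM (log2 difference -2.04, limma adjusted p = 0.00921). *Ptpn6*, the phosphatase SHP-1 that dampens these receptors, had 22.4 and 19.07 FPKM in the Sp3KO libraries and 35 and 39.4 FPKM in the Sp1_deltaDBD libraries (log2 difference -0.84 ± 0.20, SE, n = 2 against 2, limma adjusted p = 0.0174). *Jak2*, the kinase that carries their signal, had 18.7 and 18.4 FPKM in the Sp3KO libraries and 25.3 and 29.1 FPKM in the Sp1_deltaDBD libraries (log2 difference -0.55 ± 0.13, SE, n = 2 against 2, limma adjusted p = 0.0145), and *Lyn*, a Src family kinase, had 23.5 and 25.3 against 33.4 and 40.1 FPKM (log2 difference -0.58, limma adjusted p = 0.0436). The differences of these 3 signalling genes were under 1 on the log2 scale, but no library of one genotype reached those of the other. The count of lower genes was 0 without Sp3KO replicate 1, 1 without Sp3KO replicate 2, 3 without Sp1_deltaDBD replicate 1 and 1 without Sp1_deltaDBD replicate 2. *Csf2rb*, *Csf2rb2*, *Ptpn6*, *Jak2* and *Lyn* lost the limma call without Sp3KO replicate 1 (adjusted p from 0.0514 to 0.196), as did *Ptpn6*, *Jak2* and *Lyn* without Sp3KO replicate 2 (adjusted p from 0.0859 to 0.134). *Lyn* lost the limma call without Sp1_deltaDBD replicate 1 (adjusted p = 0.053), as did *Csf2rb2*, *Ptpn6*, *Jak2* and *Lyn* without Sp1_deltaDBD replicate 2 (adjusted p from 0.0624 to 0.174). *Jak2* and *Lyn* were no longer called after correction for GC content and length (limma adjusted p = 0.0741).

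Of 30 haematopoietic transcription factors, 1 was lower and none was higher (shares over all genes tested 5.89% and 5.73%, median log2 difference 0.06). This was *Meis1*, a homeobox factor of stem cells and megakaryocytes, with 9.23 and 7.58 FPKM in the Sp3KO libraries and 16.1 and 13.9 FPKM in the Sp1_deltaDBD libraries (log2 difference -0.83 ± 0.22, SE, n = 2 against 2, limma adjusted p = 0.029). *Runx1*, the factor required for the exit from haemogenic endothelium, had 33.5 and 27.5 FPKM in the Sp3KO libraries and 12.7 and 67.5 FPKM in the Sp1_deltaDBD libraries (log2 difference 0.05, limma adjusted p = 0.972). The 2 Sp1_deltaDBD libraries thus lay below and above both Sp3KO libraries. *Tal1*, a partner of GATA1, had 109 and 114 against 75.1 and 99.8 FPKM (log2 difference 0.36, limma adjusted p = 0.486). *Gfi1b*, which represses endothelial genes, had 46.6 and 54 against 54 and 65.6 FPKM (log2 difference -0.25, limma adjusted p = 0.785), and *Myb*, required for definitive progenitors, had 86.8 and 74.5 against 43.5 and 67.9 FPKM (log2 difference 0.56, limma adjusted p = 0.461). Thus 29 of the 30 factors were not called. *Meis1* lost the limma call without Sp3KO replicate 1 (adjusted p = 0.0671) and without Sp3KO replicate 2 (adjusted p = 0.19). *Meis1* lost the limma call without Sp1_deltaDBD replicate 1 (adjusted p = 0.131). *Meis1* was no longer called after correction for GC content and length (limma adjusted p = 0.168).

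Genes of the interferon response and of antigen presentation were mixed. Of 31 tested, 8 were lower and 2 were higher (median log2 difference -0.61). With libraries left out, the list had lower genes numbering 5 without Sp3KO replicate 1, 6 without Sp3KO replicate 2, 8 without Sp1_deltaDBD replicate 1 and 6 without Sp1_deltaDBD replicate 2. Among the 23 of them with a mean above 1 FPKM over the 4 libraries, 3 were lower and the median was -0.24. *Psmb8* and *Psmb9*, catalytic subunits of the immunoproteasome, were at the lowest value in both Sp3KO libraries. *Psmb8* had 1.61 and 0.739 FPKM in the Sp1_deltaDBD libraries (limma adjusted p = 0.00419). *Psmb9* had 0.428 and 0.749 FPKM there (limma adjusted p = 0.00476). *Ifit3*, an antiviral protein, had 0.393 FPKM in Sp3KO replicate 2, the lowest value in replicate 1, and 1.34 and 1.76 FPKM in Sp1_deltaDBD (limma adjusted p = 0.0080). These genes were thus at the lowest value in at least 1 Sp3KO library and had at most 1.76 FPKM in any of the 4 libraries. The higher genes were the membrane proteins *Ifitm2*, with 138 and 146 FPKM in the Sp3KO libraries and 60.2 and 61.7 FPKM in the Sp1_deltaDBD libraries (log2 difference 1.22 ± 0.12, SE, n = 2 against 2, limma adjusted p = 6.36e-05), and *Ifitm3*, with 36.5 and 31.7 FPKM in the Sp3KO libraries and 13.8 and 13 FPKM in the Sp1_deltaDBD libraries (log2 difference 1.34 ± 0.24, SE, n = 2 against 2, limma adjusted p = 0.00376). The interferon factor *Irf7* had 1.45 and 1.73 against 1.44 and 1.8 FPKM (log2 difference -0.02, limma adjusted p = 0.976). *Ifit3* lost the limma call without Sp3KO replicate 1 (adjusted p = 0.0819).

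Endothelial genes were more often higher than lower. Of 38 tested, 7 were higher and 1 was lower in Sp3KO (median log2 difference 0.38), the lower gene being *Emcn*. The list had 5 higher and 2 lower genes after correction for GC content and length (median log2 difference 0.33). The summed level was 417 and 492 FPKM in the Sp3KO libraries and 292 and 366 FPKM in the Sp1_deltaDBD libraries. *Aplnr*, the receptor of apelin, had 12.3 and 18.6 FPKM in the Sp3KO libraries and 3.93 and 7.52 FPKM in the Sp1_deltaDBD libraries (log2 difference 1.46 ± 0.29, SE, n = 2 against 2, limma adjusted p = 0.00675). *Eng*, the TGF-beta coreceptor endoglin, had 14.5 and 19.4 FPKM in the Sp3KO libraries and 6.14 and 8.5 FPKM in the Sp1_deltaDBD libraries (log2 difference 1.21 ± 0.23, SE, n = 2 against 2, limma adjusted p = 0.00503). *Notch1*, the receptor that specifies arterial and haemogenic fate, had 2.34 and 3.27 FPKM in the Sp3KO libraries and 0.732 and 1.12 FPKM in the Sp1_deltaDBD libraries (log2 difference 1.51 ± 0.22, SE, n = 2 against 2, limma adjusted p = 9.96e-04). *Sox18*, an endothelial transcription factor, had 3.37 and 4.49 against 1.43 and 0.434 FPKM (log2 difference 2.14, limma adjusted p = 0.0227). All these values were higher in each Sp3KO library. The defining genes *Cdh5*, *Pecam1* and *Kdr* were not called. *Cdh5*, the endothelial cadherin, had 20.9 and 26.4 against 18.9 and 15.7 FPKM (log2 difference 0.45, limma adjusted p = 0.439), and *Kdr*, which encodes Flk1, had 49.4 and 55 against 33.4 and 47.9 FPKM (log2 difference 0.38, limma adjusted p = 0.359). *Dll4*, an arterial ligand of Notch receptors, was at the lowest value in all 4 libraries. The count of higher genes was 4 without Sp3KO replicate 1, 1 without Sp3KO replicate 2, 3 without Sp1_deltaDBD replicate 1 and 6 without Sp1_deltaDBD replicate 2. *Sox18* lost the limma call without Sp3KO replicate 1 (adjusted p = 0.0722), as did *Aplnr*, *Eng* and *Sox18* without Sp3KO replicate 2 (adjusted p from 0.0606 to 0.136). *Aplnr* lost the limma call without Sp1_deltaDBD replicate 1 (adjusted p = 0.0607), as did *Sox18* without Sp1_deltaDBD replicate 2 (adjusted p = 0.143).

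Of 29 genes of the BMP, Id and Notch families, 3 were higher and 1 was lower (shares over all genes tested 5.73% and 5.89%, median log2 difference 0.09). Besides *Notch1*, these were *Bmp2*, a ligand, with 7.76 and 8.7 against 4.44 and 2.16 FPKM (log2 difference 1.38, limma adjusted p = 0.0484), and *Smad6*, an inhibitor of BMP signalling, with 27 and 23.4 against 10.02 and 11.6 FPKM (log2 difference 1.21, limma adjusted p = 0.0156). *Id2*, an inhibitor of E proteins and a BMP target, was lower with 1.2 and 1.28 against 3.05 and 2.65 FPKM (log2 difference -1.14, limma adjusted p = 0.0176). *Bmp2*, *Smad6* and *Id2* lost the limma call without Sp3KO replicate 1 (adjusted p from 0.094 to 0.138) and without Sp3KO replicate 2 (adjusted p from 0.0578 to 0.20). *Smad6* and *Id2* lost the limma call without Sp1_deltaDBD replicate 1 (adjusted p from 0.0809 to 0.0863), as did *Bmp2* without Sp1_deltaDBD replicate 2 (adjusted p = 0.251). *Bmp2* and *Smad6* were no longer called after correction for GC content and length (limma adjusted p from 0.0581 to 0.0755).

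Markers of other cell types were examined next. Over all genes tested, 5.73% were higher and 5.89% were lower. Of 28 cardiac and smooth muscle genes, 3 were higher and none was lower, with a summed level of 351 and 353 FPKM in Sp3KO and 472 and 271 FPKM in Sp1_deltaDBD. *Des*, the muscle filament desmin, had 2.6 and 2.78 FPKM in the Sp3KO libraries and 0.512 and 0.247 FPKM in the Sp1_deltaDBD libraries (log2 difference 2.60 ± 0.45, SE, n = 2 against 2, limma adjusted p = 0.00287). *Gata4*, a factor of cardiac mesoderm and endoderm, had 2.72 and 4.9 against 1.46 and 1.41 FPKM (log2 difference 1.29, limma adjusted p = 0.0317), and *Myl9*, a myosin light chain, had 9.81 and 12.2 against 5.44 and 1.14 FPKM (log2 difference 2.08, limma adjusted p = 0.050). *Acta2*, the smooth muscle actin, had 35.6 and 44.9 against 89.5 and 14.4 FPKM (log2 difference 0.15, limma adjusted p = 0.945), so that the Sp1_deltaDBD libraries lay above and below both Sp3KO libraries. Of 28 fibroblast and matrix genes, 2 were higher, near the share over all genes tested, and none was lower. Their summed level was 642 and 640.3 FPKM in Sp3KO and 427 and 532 FPKM in Sp1_deltaDBD. *Col18a1*, a basement membrane collagen, had 103 and 109 FPKM in the Sp3KO libraries and 39.1 and 68.4 FPKM in the Sp1_deltaDBD libraries (log2 difference 1.03 ± 0.22, SE, n = 2 against 2, limma adjusted p = 0.0097). *Lamb1*, a laminin chain, had 10.9 and 10.2 against 7.26 and 6.71 FPKM (log2 difference 0.59, limma adjusted p = 0.0263), and *Pdgfra* had 0.408 and 0.225 against 0.414 and 0.213 FPKM (log2 difference 0.02, limma adjusted p = 0.982). *Myl9* and *Lamb1* lost the limma call without Sp3KO replicate 1 (adjusted p = 0.135), as did *Gata4*, *Myl9*, *Col18a1* and *Lamb1* without Sp3KO replicate 2 (adjusted p from 0.0662 to 0.259). *Gata4*, *Col18a1* and *Lamb1* lost the limma call without Sp1_deltaDBD replicate 1 (adjusted p from 0.0581 to 0.0933), as did *Gata4*, *Myl9* and *Lamb1* without Sp1_deltaDBD replicate 2 (adjusted p from 0.0834 to 0.322). *Gata4* and *Lamb1* were no longer called after correction for GC content and length (limma adjusted p from 0.089 to 0.123).

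None of 12 epithelial and endoderm genes was called, where 5.73% and 5.89% of all genes were. Their summed level was 40.1 and 37.3 FPKM in Sp3KO and 72.6 and 8.39 FPKM in Sp1_deltaDBD, and *Epcam* was at the lowest value in 3 of the 4 libraries. Of 27 pluripotency genes, 2 were higher, near the share over all genes tested, and 11 were at the lowest value in all 4 libraries. The defining genes *Pou5f1* and *Nanog* were at the lowest value in both Sp3KO libraries and in Sp1_deltaDBD replicate 1, with 0.247 and 0.141 FPKM in replicate 2. *Lin28a*, an RNA-binding protein of embryonic cells that blocks let-7 maturation, was well expressed, with 59.8 and 50.1 FPKM in the Sp3KO libraries and 26.8 and 24.9 FPKM in the Sp1_deltaDBD libraries (log2 difference 1.08 ± 0.16, SE, n = 2 against 2, limma adjusted p = 9.68e-04). *Dppa5a* was at the lowest value in both Sp1_deltaDBD libraries and at 0.535 and 0.82 FPKM in Sp3KO (limma adjusted p = 0.0355). The part of contaminating cells in these differences was not tested. *Dppa5a* lost the limma call without Sp3KO replicate 1 (adjusted p = 0.0987) and without Sp3KO replicate 2 (adjusted p = 0.178). *Dppa5a* lost the limma call without Sp1_deltaDBD replicate 1 (adjusted p = 0.111) and without Sp1_deltaDBD replicate 2 (adjusted p = 0.0855). *Dppa5a* was no longer called after correction for GC content and length (limma adjusted p = 0.0554).

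Genes known from germ cells and reproductive tissues differed as well. Some were also expressed in ESC of both genotypes, such as *Rhox5* (103 to 331 FPKM) and *Tex19.1* (17.5 to 46.8 FPKM). Of 21 germline genes tested, 7 were lower and none was higher in Sp3KO, and 9 were at the lowest value in all 4 libraries. *Rhox5*, a homeobox gene of the reproductive tract and placenta on the X chromosome, had 1.94 and 2.02 FPKM in the Sp3KO libraries and 58.2 and 46.1 FPKM in the Sp1_deltaDBD libraries (log2 difference -4.64 ± 0.24, SE, n = 2 against 2, limma adjusted p = 1.15e-07). *Usp26*, an X-linked ubiquitin protease of the testis, had 0.239 and 0.14 FPKM in the Sp3KO libraries and 23.5 and 16.3 FPKM in the Sp1_deltaDBD libraries (log2 difference -6.11 ± 0.30, SE, n = 2 against 2, limma adjusted p = 5.54e-08). *Stag3*, a cohesin subunit of meiosis, had 3.55 and 3.49 FPKM in the Sp3KO libraries and 16.4 and 26.7 FPKM in the Sp1_deltaDBD libraries (log2 difference -2.53 ± 0.34, SE, n = 2 against 2, limma adjusted p = 5.16e-04). In these 3 genes the gap between the genotypes was larger than the spread of either pair. *Tex19.1*, which restrains transposable elements in germ cells, was at the lowest value in both Sp3KO libraries and at 4.68 and 2.76 FPKM in Sp1_deltaDBD (limma adjusted p = 6.36e-05). *Ddx4*, the germ cell RNA helicase, was at the lowest value in Sp3KO and had 1.36 and 0.336 FPKM in Sp1_deltaDBD (limma adjusted p = 0.00487). With libraries left out, the list had lower genes numbering 5 without Sp3KO replicate 1, 6 without Sp3KO replicate 2, 5 without Sp1_deltaDBD replicate 1 and 8 without Sp1_deltaDBD replicate 2. 

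Further genes at the lowest value in both Sp3KO libraries were *Trap1a*, an X-linked tumour antigen, with 38.3 and 12.1 FPKM in Sp1_deltaDBD (limma adjusted p = 2.22e-04), and *4930447C04Rik*, with 5.14 and 3.44 FPKM (limma adjusted p = 5.83e-06). *Fmr1nb*, an X-linked cancer and testis antigen, had 3.13 and 0.642 against 30.4 and 12.1 FPKM (log2 difference -3.64, limma adjusted p = 0.0447). *Mlf1*, a myeloid leukaemia factor, was at the lowest value in Sp3KO replicate 1 and at 0.706 FPKM in replicate 2, against 6.05 and 5.33 FPKM (limma adjusted p = 0.00261). *Gm10451* and *Mlana* were at the lowest value in Sp3KO replicate 2. *Gm10451* had 0.78 FPKM in replicate 1 against 3.98 and 3.02 FPKM (limma adjusted p = 0.0125), and *Mlana*, a melanocyte antigen, had 0.616 FPKM against 3.91 and 2.47 FPKM (limma adjusted p = 0.0435). In all, 75 of the lower genes were at the lowest value in both Sp3KO libraries, and 46 of the higher genes in both Sp1_deltaDBD libraries. *Fmr1nb* lost the limma call without Sp3KO replicate 1 (adjusted p = 0.0546), as did *Fmr1nb*, *Gm10451* and *Mlana* without Sp3KO replicate 2 (adjusted p from 0.121 to 0.338). *Fmr1nb*, *Gm10451* and *Mlana* lost the limma call without Sp1_deltaDBD replicate 1 (adjusted p from 0.0634 to 0.199), as did *Fmr1nb* and *Mlana* without Sp1_deltaDBD replicate 2 (adjusted p from 0.0541 to 0.0756). *Mlana* was no longer called after correction for GC content and length (limma adjusted p = 0.0568).

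In the other direction, *Renbp*, the renin-binding protein and an N-acylglucosamine epimerase on the X chromosome, had 16.7 and 19.4 FPKM in the Sp3KO libraries and 0.893 and 0.693 FPKM in the Sp1_deltaDBD libraries (log2 difference 4.35 ± 0.37, SE, n = 2 against 2, limma adjusted p = 1.80e-05). *Cd59a*, a surface protein that blocks complement lysis, had 8.77 and 10.1 FPKM in the Sp3KO libraries and 0.502 and 0.49 FPKM in the Sp1_deltaDBD libraries (log2 difference 3.99 ± 0.32, SE, n = 2 against 2, limma adjusted p = 1.11e-05). *As3mt*, the arsenite methyltransferase, had 11 and 16.7 FPKM in the Sp3KO libraries and 1.67 and 0.58 FPKM in the Sp1_deltaDBD libraries (log2 difference 3.64 ± 0.55, SE, n = 2 against 2, limma adjusted p = 0.00131). These 3 genes were expressed in each library, with no overlap. *Ano10*, of the anoctamin membrane proteins, had 5.51 and 5.39 against 0.605 and 0.133 FPKM (log2 difference 3.77, limma adjusted p = 0.0013), and *Fggy*, a carbohydrate kinase, had 3.81 and 4.34 against 0.417 and 0.15 FPKM (log2 difference 3.53, limma adjusted p = 3.31e-05). *C330024D21Rik* had 9.47 and 9.85 against 0.822 and 0.499 FPKM (log2 difference 3.72, limma adjusted p = 6.36e-05). *Tmem159* was at the lowest value in both Sp1_deltaDBD libraries and at 2.74 and 4.18 FPKM in Sp3KO (limma adjusted p = 1.50e-07), and *Apoc1*, an apolipoprotein, was likewise at the lowest value there, with 7.10 and 2.73 FPKM in Sp3KO (limma adjusted p = 6.36e-05). *Fam213b* was at the lowest value in Sp1_deltaDBD replicate 1 and at 0.511 FPKM in replicate 2, against 3.33 and 4.04 FPKM in Sp3KO (limma adjusted p = 0.00782). *Fam213b* lost the limma call without Sp3KO replicate 2 (adjusted p = 0.0561) and without Sp1_deltaDBD replicate 1 (adjusted p = 0.0703).

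The largest difference of all was that of *Gm12070*, a processed pseudogene on chromosome 11, with 80.9 and 94.9 FPKM in Sp3KO and the lowest value in both Sp1_deltaDBD libraries (limma adjusted p = 1.42e-13). It was also at the lowest value in the HE1 and HE2 libraries of both genotypes, and at 97.8 to 136 FPKM in all ESC and Flk1 libraries of both. Its reads can be shared with the parent gene, so its level is uncertain.

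Imprinted genes are transcribed from 1 parental copy. Of 47 tested, 3 were higher and 2 were lower (median log2 difference 0.13), near the shares over all genes tested (5.73% and 5.89%). *H19*, a long non-coding RNA of the maternal chromosome 7, had 45.3 and 52.6 FPKM in the Sp3KO libraries and 3.86 and 0.669 FPKM in the Sp1_deltaDBD libraries (log2 difference 4.81 ± 0.61, SE, n = 2 against 2, limma adjusted p = 3.45e-04). *Igf2*, its neighbour expressed from the paternal copy, which encodes a fetal growth factor, had 89.8 and 97.6 FPKM in the Sp3KO libraries and 42.5 and 22.9 FPKM in the Sp1_deltaDBD libraries (log2 difference 1.58 ± 0.46, SE, n = 2 against 2, limma adjusted p = 0.0418). Both were higher in each Sp3KO library. *Mest* and *Copg2*, which lie next to each other on chromosome 6 and overlap, were both lower. *Mest*, a hydrolase gene of mesoderm, had 51.3 and 34.9 FPKM in the Sp3KO libraries and 118 and 129 FPKM in the Sp1_deltaDBD libraries (log2 difference -1.54 ± 0.28, SE, n = 2 against 2, limma adjusted p = 0.00381), and *Copg2*, a coat protein gene, had 29.6 and 24.6 against 51.7 and 53.2 FPKM (log2 difference -0.96, limma adjusted p = 0.00224). *Dlk1*, an inhibitor of Notch signalling and adipogenesis, had 2.23 and 1.81 against 0.525 and 0.322 FPKM (log2 difference 2.04, limma adjusted p = 0.157), and the *Meg3* RNA of the same locus had 0.0234 and 0.0954 against 0.617 and 0.139 FPKM (limma adjusted p = 0.245), 1 value being the lowest of its library. *Igf2* lost the limma call without Sp3KO replicate 1 (adjusted p = 0.132) and without Sp3KO replicate 2 (adjusted p = 0.173). *Igf2* lost the limma call without Sp1_deltaDBD replicate 2 (adjusted p = 0.20). *Igf2* was no longer called after correction for GC content and length (limma adjusted p = 0.0858).

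Of 36 DNA methylation and Polycomb genes, 2 were higher and 1 was lower, where 5.73% and 5.89% of all genes tested were. *Dnmt3b*, a de novo DNA methyltransferase, had 69.6 and 69.7 FPKM in the Sp3KO libraries and 28.1 and 45.7 FPKM in the Sp1_deltaDBD libraries (log2 difference 0.96 ± 0.20, SE, n = 2 against 2, limma adjusted p = 0.00717). The Polycomb subunits *Cbx7* and *Cbx6* moved in opposite directions. *Cbx7* was lower, with 1.27 and 1.26 FPKM in the Sp3KO libraries and 4.43 and 5.04 FPKM in the Sp1_deltaDBD libraries (log2 difference -1.82 ± 0.22, SE, n = 2 against 2, limma adjusted p = 2.04e-04), and *Cbx6* was higher, with 9.12 and 8.84 against 4.92 and 5.82 FPKM (log2 difference 0.74, limma adjusted p = 0.00228). *Dnmt3b* lost the limma call without Sp1_deltaDBD replicate 1 (adjusted p = 0.0552).

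Hox genes encode homeodomain factors that set position along the body axis. Of 18 tested, 7 were higher and none was lower (median log2 difference 0.93), and the summed level was 30.5 and 27.3 FPKM in Sp3KO and 6.83 and 6.89 FPKM in Sp1_deltaDBD. All 6 tested genes of the Hoxd cluster were among the 7. *Hoxd8* had 10.6 and 10.5 FPKM in the Sp3KO libraries and 2.16 and 2.55 FPKM in the Sp1_deltaDBD libraries (log2 difference 2.12 ± 0.45, SE, n = 2 against 2, limma adjusted p = 0.00921). *Hoxd4* had 6.79 and 4.68 FPKM in the Sp3KO libraries and 1.31 and 1.34 FPKM in the Sp1_deltaDBD libraries (log2 difference 2.01 ± 0.37, SE, n = 2 against 2, limma adjusted p = 0.00419). *Hoxd9* had 2.81 and 2.28 FPKM in the Sp3KO libraries and 0.264 and 0.313 FPKM in the Sp1_deltaDBD libraries (log2 difference 2.76 ± 0.63, SE, n = 2 against 2, limma adjusted p = 0.0129). No Sp1_deltaDBD library reached a Sp3KO library in these genes. *Hoxd3*, which overlaps *Hoxd4*, had 2.54 and 1.8 against 0.355 and 0.461 FPKM (log2 difference 2.15, limma adjusted p = 0.00498). *Hoxb4*, on chromosome 11, had 0.981 and 1.25 against 0.31 and 0.437 FPKM (log2 difference 1.37, limma adjusted p = 0.016). The Hoxd cluster lies on chromosome 2, and its genes start 1.71 to 1.78 Mb beyond the end of *Sp3*. The count of higher genes was 4 without Sp3KO replicate 1, 3 without Sp3KO replicate 2, 4 without Sp1_deltaDBD replicate 1 and 6 without Sp1_deltaDBD replicate 2. *Hoxd8*, *Hoxd9* and *Hoxd3* lost the limma call without Sp3KO replicate 1 (adjusted p from 0.0508 to 0.0797), as did *Hoxd8*, *Hoxd9* and *Hoxb4* without Sp3KO replicate 2 (adjusted p from 0.0551 to 0.116). *Hoxd8*, *Hoxd9* and *Hoxb4* lost the limma call without Sp1_deltaDBD replicate 1 (adjusted p from 0.0504 to 0.0897).

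**Figure D3:**
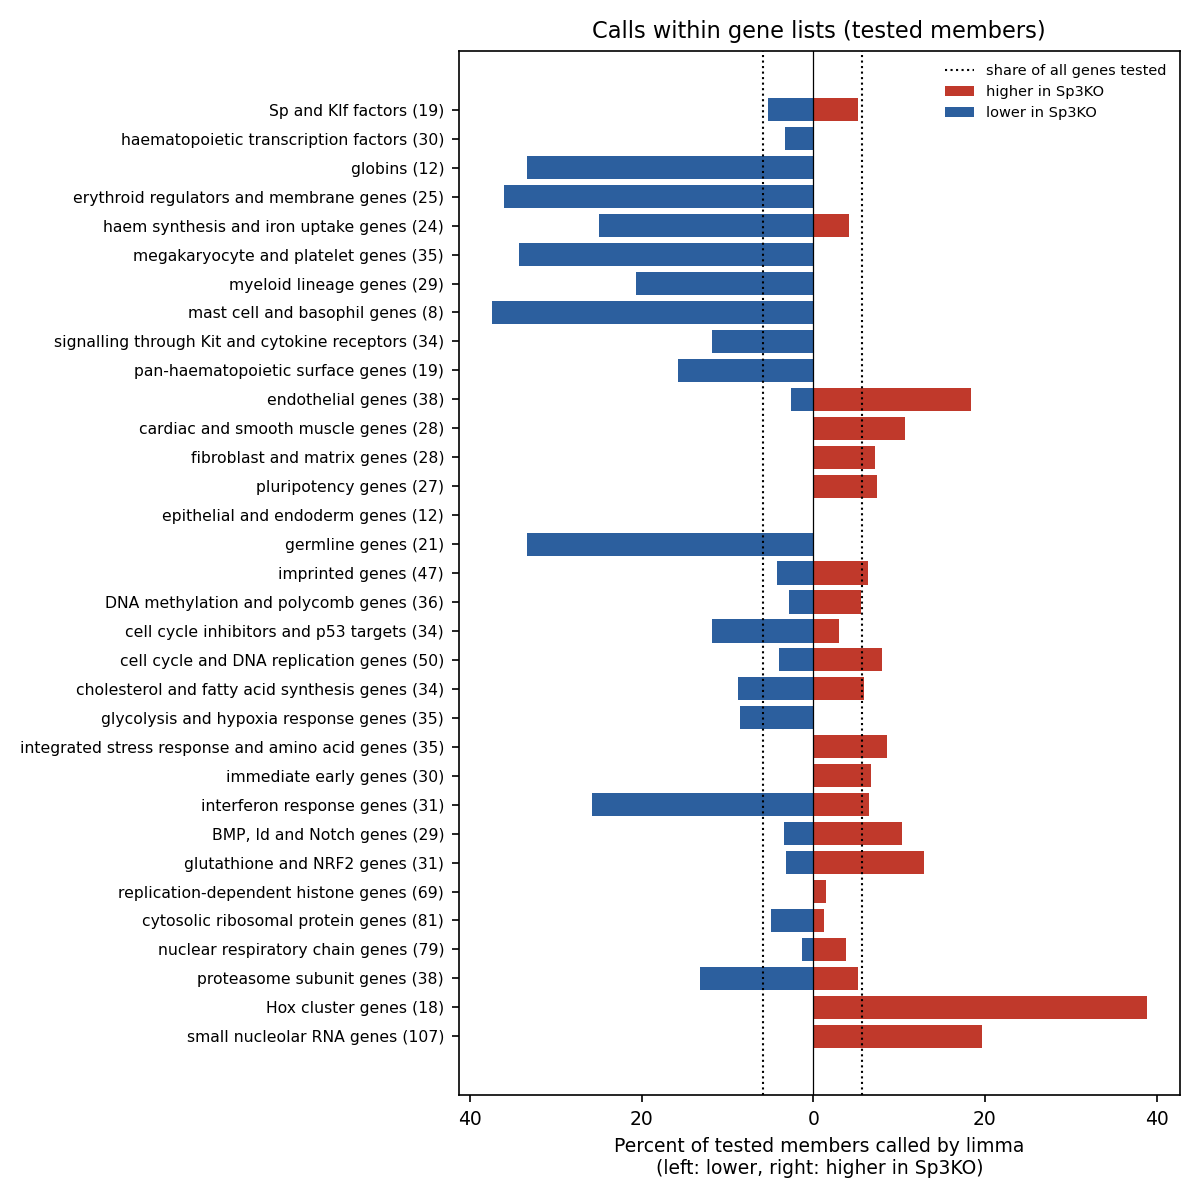
Bars give the percentage of the tested members of each gene list that limma called lower (left, blue) or higher (right, red) in Sp3KO, with the number of tested members in brackets. Dotted lines mark the shares over all genes tested, 5.89% and 5.73%, and the mast cell, erythroid and megakaryocyte lists reach furthest to the left and the Hox genes to the right.

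Small nucleolar RNAs guide the modification of ribosomal RNA and mostly lie in introns of host genes, so that their reads cannot be told apart from unspliced host transcripts. Of 107 tested, 21 were higher and none was lower (median log2 difference 0.58). *Snora44* had 76.3 and 92.5 FPKM in the Sp3KO libraries and 13.8 and 14.9 FPKM in the Sp1_deltaDBD libraries (log2 difference 2.54 ± 0.29, SE, n = 2 against 2, limma adjusted p = 1.65e-04). *Snord17* had 273 and 648 FPKM in the Sp3KO libraries and 147 and 110.3 FPKM in the Sp1_deltaDBD libraries (log2 difference 1.72 ± 0.46, SE, n = 2 against 2, limma adjusted p = 0.0286). *Scarna3a*, a related RNA of Cajal bodies, had 30.6 and 45.5 FPKM in the Sp3KO libraries and 3.87 and 3.39 FPKM in the Sp1_deltaDBD libraries (log2 difference 3.33 ± 0.68, SE, n = 2 against 2, limma adjusted p = 0.00745). Both Sp3KO libraries were above both Sp1_deltaDBD libraries in 57 of the 107, and in 25.6% of all genes tested. *Snora74a*, the most abundant of those called, had 586 and 766 against 318 and 341 FPKM (log2 difference 1.02, limma adjusted p = 0.043). After correction for GC content and length, the list median was -0.05, and 2 genes were higher and 4 lower. With libraries left out, the list had higher genes numbering 11 without Sp3KO replicate 1, 6 without Sp3KO replicate 2, 24 without Sp1_deltaDBD replicate 1 and 8 without Sp1_deltaDBD replicate 2. *Snora74a* lost the limma call without Sp3KO replicate 1 (adjusted p = 0.0836), as did *Snord17*, *Scarna3a* and *Snora74a* without Sp3KO replicate 2 (adjusted p from 0.0642 to 0.257). *Snord17* and *Snora74a* lost the limma call without Sp1_deltaDBD replicate 1 (adjusted p from 0.0623 to 0.143) and without Sp1_deltaDBD replicate 2 (adjusted p from 0.0861 to 0.107). *Snord17* and *Snora74a* were no longer called after correction for GC content and length (limma adjusted p from 0.0699 to 0.38).

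Of 69 replication-dependent histone genes, 1 was higher and none was lower, although the median log2 difference was 0.61. After correction for GC content and length, the median was 0.08, with 5 lower genes. The median was 0.15 without Sp1_deltaDBD replicate 2, 0.38 without Sp3KO replicate 1, 0.71 without Sp3KO replicate 2 and 1.05 without Sp1_deltaDBD replicate 1. The called gene, *Hist1h4m*, had 185 and 134 FPKM in the Sp3KO libraries and 0.537 and 49.2 FPKM in the Sp1_deltaDBD libraries (log2 difference 4.81 ± 1.24, SE, n = 2 against 2, limma adjusted p = 0.0241), and reads of such near-identical copies cannot be assigned with certainty. *Hist1h4m* lost the limma call without Sp3KO replicate 1 (adjusted p = 0.116) and without Sp3KO replicate 2 (adjusted p = 0.0907). *Hist1h4m* was no longer called after correction for GC content and length (limma adjusted p = 0.057). Of 50 genes of the cell cycle and DNA replication, 4 were higher and 2 were lower (shares over all genes tested 5.73% and 5.89%). *Tk1*, the thymidine kinase, had 59.7 and 73.1 FPKM in the Sp3KO libraries and 29.99 and 32.7 FPKM in the Sp1_deltaDBD libraries (log2 difference 1.07 ± 0.13, SE, n = 2 against 2, limma adjusted p = 2.35e-04). *Rrm2*, a subunit of ribonucleotide reductase, had 85.9 and 88.9 against 64.4 and 57.9 FPKM (log2 difference 0.52, limma adjusted p = 0.00767), and the licensing factor *Cdt1* had 84.7 and 81.6 against 37.4 and 64.1 FPKM (log2 difference 0.76, limma adjusted p = 0.019). The mitotic genes *Top2a*, a topoisomerase, and *Mki67*, a marker of cycling cells, were lower instead. *Top2a* had 179.9 and 171 against 265 and 358 FPKM (log2 difference -0.81, limma adjusted p = 0.0412), and *Mki67* had 147 and 146 against 212 and 277 FPKM (log2 difference -0.73, limma adjusted p = 0.0321). Of 34 inhibitors of the cell cycle and p53 targets, 4 were lower and 1 was higher, where 5.89% and 5.73% of all genes tested were. *Rb1*, the retinoblastoma protein gene, had 6.53 and 6.76 FPKM in the Sp3KO libraries and 12.3 and 15.1 FPKM in the Sp1_deltaDBD libraries (log2 difference -1.02 ± 0.18, SE, n = 2 against 2, limma adjusted p = 0.00284), *Ccng1*, a p53 target, had 77.8 and 67.2 against 129 and 136 FPKM (log2 difference -0.88, limma adjusted p = 0.00526), and *Trp53* itself had 94.1 and 105 against 51.1 and 80.9 FPKM (log2 difference 0.63, limma adjusted p = 0.0336). *Cdt1*, *Top2a*, *Mki67* and *Trp53* lost the limma call without Sp3KO replicate 1 (adjusted p from 0.0863 to 0.129), as did *Rrm2*, *Cdt1*, *Top2a*, *Mki67*, *Ccng1* and *Trp53* without Sp3KO replicate 2 (adjusted p from 0.0567 to 0.189). *Cdt1* and *Trp53* lost the limma call without Sp1_deltaDBD replicate 1 (adjusted p from 0.124 to 0.242), as did *Top2a* and *Mki67* without Sp1_deltaDBD replicate 2 (adjusted p from 0.156 to 0.189). *Cdt1* and *Trp53* were no longer called after correction for GC content and length (limma adjusted p from 0.0862 to 0.115).

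Genes of basic metabolism and protein synthesis had list medians from -0.09 to 0.07, apart from the immediate early genes with a median of 0.35, which was -0.04 without Sp1_deltaDBD replicate 1. Of 81 cytosolic ribosomal protein genes, 1 was higher and 4 were lower (shares over all genes tested 5.73% and 5.89%, median log2 difference -0.01). They include some of the most abundant called genes. *Rps29* had 1421 and 1459.8 against 925 and 1159 FPKM (log2 difference 0.48, limma adjusted p = 0.044). *Rpl39* had 850.2 and 758 against 1244 and 1050.5 FPKM (log2 difference -0.51, limma adjusted p = 0.0325), *Rps6* had 613 and 613 against 782 and 782 FPKM (log2 difference -0.35, limma adjusted p = 0.0355) and *Rps3* had 501 and 558 against 669 and 684 FPKM (log2 difference -0.36, limma adjusted p = 0.0392). The equal values of *Rps6* within each genotype mark equal ranks under quantile normalisation. *Rps3a1*, named for its level, had 581 and 586 against 758 and 766 FPKM (log2 difference -0.39, limma adjusted p = 0.0271). These differences were small, and ribosomal protein genes have many processed copies with which reads can be shared. Of 79 nuclear genes of the respiratory chain, 3 were higher and 1 was lower, where 5.73% and 5.89% of all genes tested were. *Cox6b2*, a testis form of a cytochrome oxidase subunit, had 26.9 and 23.2 FPKM in the Sp3KO libraries and 4.15 and 5.18 FPKM in the Sp1_deltaDBD libraries (log2 difference 2.40 ± 0.33, SE, n = 2 against 2, limma adjusted p = 6.78e-04), and *Ndufv3*, a subunit of complex I, had 43 and 45.4 against 93.2 and 93.8 FPKM (log2 difference -1.08, limma adjusted p = 2.40e-04). No mitochondrially encoded gene was in the table. *Rps29*, *Rpl39*, *Rps6*, *Rps3* and *Rps3a1* lost the limma call without Sp3KO replicate 1 (adjusted p from 0.0753 to 0.239) and without Sp3KO replicate 2 (adjusted p from 0.0748 to 0.204). *Rps29*, *Rpl39*, *Rps6*, *Rps3* and *Rps3a1* lost the limma call without Sp1_deltaDBD replicate 1 (adjusted p from 0.0691 to 0.24), as did *Rps6*, *Rps3* and *Rps3a1* without Sp1_deltaDBD replicate 2 (adjusted p from 0.0613 to 0.0893). *Rps29*, *Rps3* and *Rps3a1* were no longer called after correction for GC content and length (limma adjusted p from 0.059 to 0.694).

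The counts in this paragraph stand beside shares over all genes tested of 5.73% higher and 5.89% lower. Of 38 proteasome subunit genes, 2 were higher and 5 were lower, with both immunoproteasome genes above among the latter. *Psmc6*, an ATPase of the regulatory particle, had 104 and 93.4 against 158 and 139.7 FPKM (log2 difference -0.59, limma adjusted p = 0.00425), and *Psmd3* of the same particle had 83.4 and 88.8 against 49.8 and 63.5 FPKM (log2 difference 0.61, limma adjusted p = 0.00821). Of 34 genes of cholesterol and fatty acid synthesis, 2 were higher and 3 were lower, near these shares. *Acss2*, which makes acetyl-CoA from acetate, had 3.23 and 1.94 FPKM in the Sp3KO libraries and 9.74 and 10.3 FPKM in the Sp1_deltaDBD libraries (log2 difference -1.96 ± 0.42, SE, n = 2 against 2, limma adjusted p = 0.0102), and *Srebf1*, the factor that drives lipid synthesis, had 22.9 and 22.4 against 12 and 14.5 FPKM (log2 difference 0.77, limma adjusted p = 0.00628). Of 35 genes of glycolysis and hypoxia, 3 were lower and none was higher, among them *Pfkm*, a phosphofructokinase, with 11.8 and 11.3 against 19 and 19.19 FPKM (log2 difference -0.72, limma adjusted p = 0.00322), and the mitophagy receptor *Bnip3l*, with 35 and 35.8 against 52.7 and 59.8 FPKM (log2 difference -0.66, limma adjusted p = 0.00426). Of 35 genes of the integrated stress response, 3 were higher, such as the mitochondrial serine enzyme *Shmt2*, with 61.6 and 63 against 39.4 and 32.3 FPKM (log2 difference 0.80, limma adjusted p = 0.0206). Of 30 immediate early genes, 2 were higher, namely *Cyr61*, a matrix signalling protein, with 28.1 and 25.9 against 11.5 and 12.8 FPKM (log2 difference 1.15, limma adjusted p = 0.00835), and *Ier2*, with 49.97 and 43.1 against 19 and 27.4 FPKM (log2 difference 1.02, limma adjusted p = 0.0124). Of 31 glutathione and NRF2 genes, 4 were higher, *Hmox1* among them, and 1 was lower. *Gstm2*, a glutathione transferase with close paralogs, had 30.3 and 25.7 against 12.5 and 9.98 FPKM (log2 difference 1.31, limma adjusted p = 0.0143), and *Mgst3*, a microsomal one, had 14.6 and 26.7 against 74 and 51.9 FPKM (log2 difference -1.65, limma adjusted p = 0.00536). *Shmt2*, *Cyr61*, *Ier2*, *Gstm2* and *Mgst3* lost the limma call without Sp3KO replicate 1 (adjusted p from 0.0616 to 0.0968), as did *Psmc6*, *Psmd3*, *Acss2*, *Shmt2* and *Gstm2* without Sp3KO replicate 2 (adjusted p from 0.0516 to 0.105). *Psmd3* and *Ier2* lost the limma call without Sp1_deltaDBD replicate 1 (adjusted p from 0.0644 to 0.0957), as did *Shmt2* and *Gstm2* without Sp1_deltaDBD replicate 2 (adjusted p from 0.0632 to 0.0961). *Psmc6*, *Shmt2* and *Ier2* were no longer called after correction for GC content and length (limma adjusted p from 0.0507 to 0.0945).

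Called genes were also examined for their position. Within each chromosome, windows of 20 neighbouring genes above 1 FPKM on average were counted, and a window with at least 8 genes called in 1 direction was found at a single place. This was chromosome 14, from *Zfp219* to *Nynrin* (52006077 to 55874736, 3.87 Mb), where one window held 13 higher genes, against at most 7 in any window elsewhere. The run had 60 genes, of which 30 were higher and none was lower in Sp3KO, and 52 had a positive difference. Their median log2 difference was 0.75 (quartiles 0.42 and 1.0), a ratio of 1.68. The other 335 genes of chromosome 14 had a median of -0.13, with 12 higher and 32 lower genes. After correction for GC content and length, the median of the run was 0.57, and 25 genes were higher. The place was found by looking at the calls, so that these counts are a description. At the start of the chromosome, the first 7 genes in this order, from *Gm2897* to *Gm3558*, had negative differences in all 5 populations (median log2 difference -1.30 in progenitors), and 4 of them were lower. They were chosen after their values were seen, and most are predicted genes.

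The genes of the run have various tasks. *Dad1*, a subunit of the oligosaccharyl transferase, had 99.1 and 110.1 FPKM in the Sp3KO libraries and 46.4 and 37.7 FPKM in the Sp1_deltaDBD libraries (log2 difference 1.32 ± 0.12, SE, n = 2 against 2, limma adjusted p = 3.31e-05). *Prmt5*, an arginine methyltransferase, had 75.8 and 77.9 FPKM in the Sp3KO libraries and 37.4 and 39.95 FPKM in the Sp1_deltaDBD libraries (log2 difference 0.99 ± 0.09, SE, n = 2 against 2, limma adjusted p = 3.23e-05). *Nedd8*, a ubiquitin-like modifier, had 249.1 and 247 FPKM in the Sp3KO libraries and 139 and 127 FPKM in the Sp1_deltaDBD libraries (log2 difference 0.90 ± 0.12, SE, n = 2 against 2, limma adjusted p = 5.90e-04). In these 3 genes the values of replicates lay close together. The proteasome gene *Psmb5*, with 122 and 128 against 72.5 and 46.8 FPKM (log2 difference 1.10, limma adjusted p = 0.0206), and the mitochondrial *Pck2*, with 8.37 and 7.11 against 2.26 and 1.47 FPKM (log2 difference 2.02, limma adjusted p = 0.0109), lie in the run as well. The same 60 genes had median log2 differences of 0.59 in ESC, 0.61 in Flk1, 0.75 in HE1 and 0.72 in HE2 cells, with 27, 27, 34 and 33 genes called higher there. In only 1 gene and 1 population (ESC) did the difference itself differ from that in progenitors. DNA copy number was not measured. *Dad1*, *Prmt5* and *Pck2* were chosen after their values were seen. *Psmb5* and *Pck2* lost the limma call without Sp3KO replicate 1 (adjusted p from 0.0742 to 0.0863), as did *Psmb5* without Sp3KO replicate 2 (adjusted p = 0.107). *Psmb5* and *Pck2* lost the limma call without Sp1_deltaDBD replicate 2 (adjusted p from 0.0552 to 0.122).

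**Figure D4:**
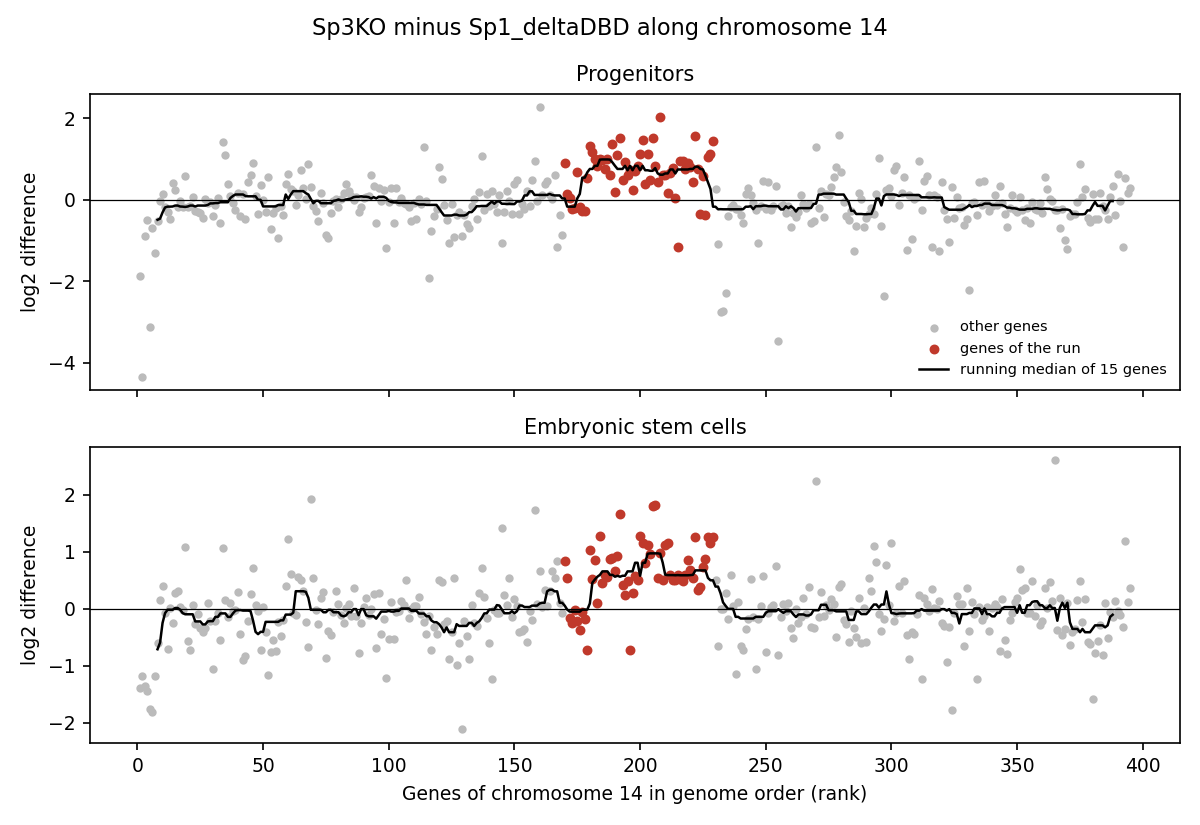
The log2 difference, Sp3KO minus Sp1_deltaDBD, of genes of chromosome 14 in genome order, in progenitors and in ESC. Red points are the 60 genes of the run and the black line is the running median of 15 genes, which is negative at the start of the chromosome, closer to 0 over the rest of it outside the run, and above 0.5 over most of the run.

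On the Y chromosome, 3 genes were above 1 FPKM on average and all 3 were lower in Sp3KO, as they were in each other population. *Eif2s3y* had 7.6 and 8.11 FPKM in the Sp3KO libraries and 27.3 and 22.7 FPKM in the Sp1_deltaDBD libraries (log2 difference -1.65 ± 0.12, SE, n = 2 against 2, limma adjusted p = 3.40e-06), *Uty* had 3.35 and 2.44 against 12.5 and 9.86 FPKM (log2 difference -1.92, limma adjusted p = 5.49e-04) and *Ddx3y* had 3.59 and 3.54 against 8.29 and 6.28 FPKM (log2 difference -1.0, limma adjusted p = 0.00658). They were detected in all 4 libraries. These genes were chosen after their values were seen, and the share of cells that kept the Y chromosome was not measured. *Ddx3y* lost the limma call without Sp1_deltaDBD replicate 1 (adjusted p = 0.0533).

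The other most abundant called genes were *Snrpb*, a splicing factor of small nuclear ribonucleoproteins, with 256 and 280.1 against 184 and 205 FPKM (log2 difference 0.46, limma adjusted p = 0.0398), and *Tkt*, the transketolase of the pentose phosphate pathway, with 216 and 238 against 157 and 194 FPKM (log2 difference 0.38, limma adjusted p = 0.0406). Both differences were small and in the direction of Sp3KO. *Snrpb* and *Tkt* lost the limma call without Sp3KO replicate 1 (adjusted p from 0.0843 to 0.094) and without Sp3KO replicate 2 (adjusted p from 0.219 to 0.242). *Snrpb* and *Tkt* lost the limma call without Sp1_deltaDBD replicate 1 (adjusted p from 0.167 to 0.239). *Snrpb* and *Tkt* were no longer called after correction for GC content and length (limma adjusted p from 0.0653 to 0.15).

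To see whether other cells shared these differences, the same 2 genotypes were compared in the other 4 populations, with 2 libraries each. Of the 818 genes higher in Sp3KO progenitors, limma also called 167 higher in ESC, 218 in Flk1, 377 in HE1 and 458 in HE2 cells, where 3.97%, 3.32%, 6.95% and 7.25% of all genes were higher. Of the 841 lower genes, 220, 223, 382 and 484 were lower there as well, where 5.12%, 3.5%, 6.9% and 8.29% of all genes were. Thus 20.4% of the higher and 26.2% of the lower genes were shared with ESC, and 56% and 57.6% with HE2 cells. The shared genes were 29.5% of the 567 higher and 30.1% of the 731 lower genes of ESC, and 44.3% of the 1035 higher and 40.9% of the 1183 lower genes of HE2 cells. HE1, HE2 and progenitors were sorted from day 2 blast cultures and may share cultures. In all 5 populations, 81 genes were higher and 120 were lower.

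The difference in progenitors was itself different from that in ESC in 264 genes (1.85%), from that in Flk1 cells in 43 (0.301%), from that in HE1 cells in 80 (0.561%) and from that in HE2 cells in 15 (0.105%). The ESC count was 123 without Sp3KO replicate 1, 157 without Sp3KO replicate 2 and 504 without Sp1_deltaDBD replicate 2. Without Sp3KO replicate 1 the other counts were 19, 32 and 4, and without Sp1_deltaDBD replicate 2 they were 109, 88 and 31. With HE1, HE2 and progenitor samples of the same genotype and replicate number taken as correlated, the HE1 count was 306 and the HE2 count 48. For a gene without signal in the other population, such a result restates the difference in progenitors. Embryonic globins were among the genes whose difference was not that of HE1 cells. In HE1 cells *Hbb-bh1* had 63.6 and 59.9 FPKM in Sp3KO and 12.6 and 7.24 FPKM in Sp1_deltaDBD, so that the direction was opposite to that in progenitors (log2 difference 2.68 against -1.96, difference between populations -4.64, limma adjusted p = 0.0257). *Hba-x* had 16 and 12.7 against 5.29 and 1.53 FPKM in HE1 cells (log2 difference 2.28, difference between populations -4.10, limma adjusted p = 0.0270). In HE2 cells the levels of both genes overlapped between the genotypes. The erythroid genes *Slc4a1* and *Hemgn* also had a different contrast in progenitors than in HE1 cells, by -3.94 and -3.43 on the log2 scale (limma adjusted p = 0.0298 and 0.0257). In HE1 cells both genes were at the lowest value in the Sp1_deltaDBD libraries. In the Sp3KO HE1 libraries *Slc4a1* had 0.0866 and 0.131 FPKM, and *Hemgn* had 0.155 FPKM and the lowest value. The HE1 part of their contrast thus depends on the pseudocount.

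**Figure D5:**
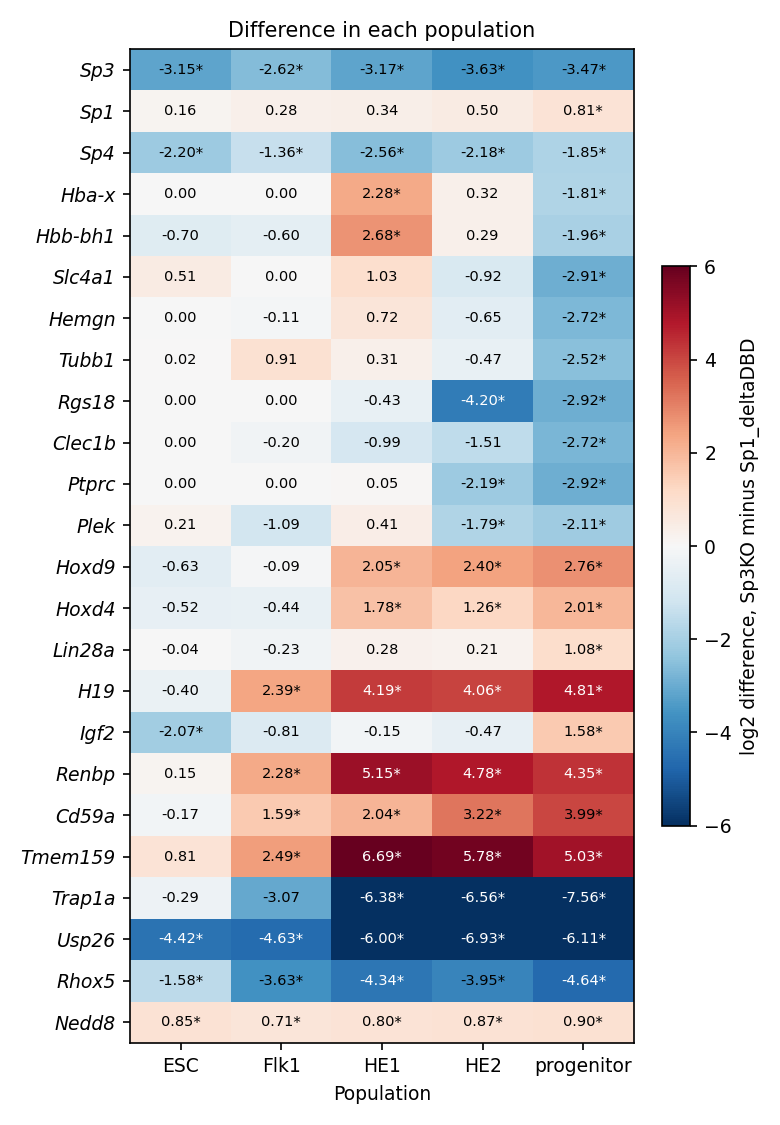
Each cell gives the log2 difference, Sp3KO minus Sp1_deltaDBD, of a gene in 1 of 5 populations, with an asterisk where limma called it (adjusted p under 0.05). *Sp3*, *Sp4*, *Usp26*, *Rhox5* and *Nedd8* keep their direction in all 5, whereas *Hba-x* and *Hbb-bh1* are higher in Sp3KO HE1 cells and lower in Sp3KO progenitors.

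*Ptprc* was at the value without signal in ESC, Flk1 and HE1 libraries of both genotypes. In HE2 cells it was at the lowest value in Sp3KO and at 0.475 and 0.341 FPKM in Sp1_deltaDBD, the direction seen in progenitors (limma adjusted p = 5.03e-04). *Rgs18* had 0.357 FPKM and the lowest value in the Sp3KO HE2 libraries and 3.51 and 4.79 FPKM in the Sp1_deltaDBD HE2 libraries (limma adjusted p = 2.62e-04). *Plek* had 6.24 and 6.66 FPKM against 16.5 and 30.8 FPKM in HE2 cells (limma adjusted p = 0.00628). These 3 genes of maturing cells were thus lower in Sp3KO already in HE2 cells. *Hoxd4* was under 0.5 FPKM in all ESC and Flk1 libraries, and in HE1 cells it had 6.20 and 5.09 FPKM in Sp3KO and 1.25 and 1.95 FPKM in Sp1_deltaDBD (limma adjusted p = 0.00764). *H19* had 34.7 and 46.9 FPKM in Sp3KO Flk1 cells and 4.48 and 13 FPKM in Sp1_deltaDBD Flk1 cells (limma adjusted p = 0.0341), whereas the values of ESC overlapped. *Rhox5* was expressed in ESC of both genotypes, at 116 and 103 FPKM in Sp3KO and 325 and 331 FPKM in Sp1_deltaDBD, and the Sp3KO level was under 5 FPKM in each later population.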

How the data were processed

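RNA was measured in 30 samples of E14 cells, of 3 genotypes and 5 populations. According to the study, total RNA libraries were trimmed, aligned to mm10 with HISAT2 2.1.0 and quantified with StringTie 1.3.3. The deposited FPKM values were quantile normalised by the authors. Read counts were not used here and the depth is unknown, so that precision rests on 2 libraries a group. Groups were taken from the sample titles.

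From these values log2(FPKM + 0.1) was computed, and 10 group means over the 20 mutant samples were fitted with limma 3.58.1 (R 4.3.3) with an intensity trend. Fold changes are on this scale, which understates the change of low genes. P-values were adjusted over all 14268 genes tested. An exact permutation of 2 against 2 samples cannot go below p = 0.333. On simulated data with 200 changed genes, 60% of log2 changes of 1 and 97% of changes of 2 were recovered. The simulated noise was independent between samples, with a single spread per gene, as the fit assumes. Changed genes averaged above 3 FPKM over the progenitor libraries. Correlated samples were not simulated, so that the recovered shares hold for this setting only.

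Gene positions, transcript GC content and length came from the GRCm38 annotation, where 14370 genes matched by symbol and 184 by an older symbol. The GC and length correction fitted each sample with splines over autosomal genes. Named were *Sp1* and *Sp3*, the 12 genes with the largest difference in each direction (called, mean above 3 FPKM in the higher group, no overlap), the 6 most abundant called genes in each direction, up to 4 called members in each direction of 35 gene lists, and defining genes of these lists. Some of these genes are given only by count. The comparison, the lists and the tests were chosen with earlier results of these data known.

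Alternatives were another pseudocount, other filters, a replicate block, other estimates of the spread, the GC and length correction, and each library left out.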

Additional observations from a re-analysis of the deposited data

Results flagged for a closer look

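The difference between Sp3KO and Sp1_deltaDBD progenitors was itself different, by limma with adjusted p under 0.05, from the same difference in ESC in 264 genes, in Flk1 cells in 43, in HE1 cells in 80 and in HE2 cells in 15. With HE1, HE2 and progenitor samples taken as correlated, the last 2 counts were 306 and 48. Genes among them with values in the tables behind this text follow, each with the log2 difference in progenitors minus that in the population with the smallest adjusted p. In progenitors, *Gm12070*, *Apoc1*, *Tmem159*, *Tmem121*, *Hbb-bt*, *Trap1a*, *Tex19.1*, *4930447C04Rik*, *Psmb8* and *Hbq1a* were at the lowest value in both libraries of a genotype, so that their numbers are fitted differences that depend on the pseudocount and are no fold changes. *Hoxd10* and *Tmem121* were chosen after their values were seen.

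Against ESC, the progenitor difference was shifted towards Sp3KO for the pseudogene *Gm12070* (9.68), *Apoc1* (5.57), *H19* (5.21), *Tmem159* (4.21), *Renbp* (4.21), *Cd59a* (4.16), *Igf2* (3.65), *As3mt* (3.33) and *Fggy* (2.93). The same held for the Hox genes *Hoxd8* (3.47), *Hoxd10* (2.85), *Hoxd4* (2.52) and *Hoxb4* (2.04). It also held for *Cyr61* (2.53), *Tmem121* (2.41), *Tal1* (1.85), *Kdr* (1.84), *Col18a1* (1.43), *Notch1* (1.32), *Ifitm2* (1.24), *Hmox1* (1.18), *Lin28a* (1.12) and the imprinted gene *Impact* (0.98). *Tal1* and *Kdr* were not called in progenitors themselves, so that their numbers do not stand for a called difference there. *Hoxd4* had at most 0.0923 FPKM in any ESC library, so that its number depends on the pseudocount.

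Against ESC, the progenitor difference was shifted towards Sp1_deltaDBD for *Hbb-bt* (-7.28), *Trap1a* (-7.28), *Gp6* (-3.94), *Tex19.1* (-3.85), *4930447C04Rik* (-3.29), *Rhox5* (-3.06), *Ptprc* (-2.92), *Plek* (-2.32) and *Cbx7* (-1.76). *Hbb-bt*, *Gp6* and *Ptprc* had 0 FPKM in the ESC libraries of both genotypes, so that their numbers restate the difference in progenitors. *Plek* had at most 0.0673 FPKM in any ESC library.

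Against HE1 cells, it was shifted towards Sp1_deltaDBD for the erythroid genes *Hbb-bh1* (-4.64), *Hba-x* (-4.10), *Slc4a1* (-3.94), *Hemgn* (-3.43) and *Alas2* (-2.91) and for the phosphatase *Ptpn6* (-2.52), and towards Sp3KO for *Lamb1* (1.21). *Slc4a1* and *Hemgn* had at most 0.131 and 0.155 FPKM in any HE1 library, so that their numbers depend on the pseudocount. *Alas2* was not called in progenitors themselves. Against Flk1 cells, the progenitor difference was shifted towards Sp1_deltaDBD for *Psmb8* (-5.0) and the globin *Hbq1a* (-4.71). *Hbq1a* had at most 0.093 FPKM in any Flk1 library.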

How the results depend on the processing

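*Sp3* kept its call under each alternative run, and no called gene with values in the tables behind this text changed direction. Medians of gene lists were less stable, and those of 19 lists changed sign under at least 1 alternative. Of these, 15 lay between -0.2 and 0.2 in the comparison as reported. The others were the small nucleolar RNA genes (0.58, and -0.05 after correction for GC content and length), epithelial and endoderm genes (0.44, and -0.14 without Sp1_deltaDBD replicate 2), immediate early genes (0.35, and -0.04 without Sp1_deltaDBD replicate 1) and surface genes of the sort (0.22, and -0.09 without Sp1_deltaDBD replicate 1). With the 4 progenitor libraries alone, limma called 17 higher and 13 lower genes, and *Sp1* (log2 difference 0.81) had an adjusted p of 0.148. Leaving out 1 library gave a log2 difference of *Sp1* from 0.58 to 1.05, 288 to 1056 higher and 381 to 764 lower genes. The fold change above 2 was then reached by 268 to 410 genes in the direction of Sp3KO. Asked in all 4 pairs of libraries it was reached by 120 higher and 156 lower genes, and with no minimum mean by 649 and 855. The counts of genes whose difference in progenitors differed from that in ESC, Flk1, HE1 and HE2 cells were 504, 173, 198 and 31 with a pseudocount of 1. Leaving out 1 library gave 123 to 504, 19 to 109, 32 to 88 and 4 to 31.

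Replicate numbers are shared between the genotypes, but no label says that a number marks a common culture, and with 2 pairs a correlation of 0.127 of their deviations does not pair them. With the replicate block limma called 597 higher and 588 lower genes, of which 551 and 544 were among the main calls. The 4 counts between populations were 104, 5, 12 and 2 with the block. Deviations of the same replicate number correlated between Sp1_deltaDBD progenitors and HE1 (0.442) and HE2 cells (0.531), and less so in Sp3KO (0.0425 and 0.116), whereas the fit as reported takes these samples as independent. Taken as correlated, limma called 837 higher and 854 lower genes, of which HE2 cells shared 56.9% and 58%. In an alternative chosen after seeing the data, the same correlation gave 252, 37, 306 and 48 genes that differed between populations. Of 159 called genes with values in the tables behind this text, 35 lost their call under the block, 34 under the GC and length correction, 74 without either Sp3KO library, 62 without Sp1_deltaDBD replicate 1 and 41 without Sp1_deltaDBD replicate 2. Genes of the X and Y chromosomes were not run through the GC and length correction. The cause of these losses was not tested. Quantile normalisation and unknown depth limit what can be said of genes near the lowest values.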
